A study of Mus musculus with 5 samples.

Results

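The comparison described here set myeloid progenitors carrying the mutant interleukin-7 receptor chain named INS against the same fraction carrying wild-type IL7R (WT), after transplantation of transduced mouse cells. It is 1 of the 5 arrays of the series, the one whose title pairs INS KSL with WT-KSL in vivo. Its 23473 probes were taken by their identifiers, and no measured value entered the choice. KSL cells of Balb/c mice, which include blood stem cells and early progenitors, were transduced with a retrovirus for either receptor and given to lethally irradiated recipients. Around day 40 the CMP fraction was sorted from samples that the labels describe as a myeloid disorder, and the sorted cells were pooled. The WT pool was coupled to Cy5 and the INS pool to Cy3 on a single 2-colour array, without a replicate or a dye swap. The sources used here give neither the number of animals in each pool nor whether the WT recipients were also diseased. The wild-type receptor was itself introduced by a retrovirus, so every difference below is between mutant and added wild-type receptor, not between mutant and untransduced cells.

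The other 4 arrays, used here for comparison only, also set INS against WT in transduced Balb/c cells. They held CLP cells cultured for 5 to 7 days with SCF, IL-7, Flt3 ligand and OP9 stroma, and KSL cells cultured for 4 to 5 days with added cytokines. The description of the KSL culture opens with the words in vivo, but its title and the rest give a culture. The remaining arrays held IgM+B220+ B cells from CLP recipients irradiated with 4 Gy, around day 60, of which the labels call the INS cells leukemic, and T-cell leukemias (T-ALL) grown from KSL cells co-transduced with intracellular Notch1 (ICN1), taken at day 30 to 40.

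The interleukin-7 receptor chain pairs with the common gamma chain at the cell surface and signals through JAK kinases to STAT5, a route best known for the growth and survival of early B and T cells. Common myeloid progenitors (CMP) lie on the branch that leads to granulocytes, macrophages, megakaryocytes and red cells. In standard sorting schemes they are gated as negative for this receptor. Whether the sorted cells carried the introduced receptor could not be read here.

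Probe IDs stand in for gene names throughout, since no file used here links one to the other, and 0 of the IDs occur in the RefSeq gene table. The level of Il7r, the defining markers of CMP and those of other cell types could therefore not be read, and the label of the cells was not checked against them. Detection in a channel meant a signal more than 2 SD above the mean of the blank spots. In the WT channel 71.4% of the probes were detected, and in the INS channel 58.2%. This was the dimmest array of the series: the other arrays had 79.1% to 83.2% detected in WT and 76.0% to 80.2% in INS. It was also scanned at the lowest photomultiplier gain, 36 for Cy5 and 37 for Cy3, against 37 to 38 and 39 to 42 on the others. Of the probes, 3623 were detected in WT only and 529 in INS only. The WT-only probes had a median signal of 18.0 against a limit of 15.9, so most of them lay just over it, and only 19 of them were 2-fold apart. Of the 1102 spots that hold no probe, 52.8% passed the limit in WT and 14.2% in INS, so detection here does not by itself mean expression. The part of this imbalance in the results was not tested.

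In CMP cells about as many probes were higher as lower with the mutant receptor. Of 17281 probes detected in at least 1 channel, 524 (3.03%) had a signal at least 2-fold higher in INS, and 540 (3.12%) one at least 2-fold lower. The median log2 ratio of INS over WT was -0.02, the middle 90% of the probes lay between -0.83 and 0.70, and the SD was 0.48. At 3-fold the counts were 208 higher and 134 lower, and at 4-fold 89 higher and 47 lower. No probe was 8-fold higher, while 5 were 8-fold lower. The constant added to each signal compressed the ratios, most where a signal was dim, so these folds can be understated. With 1 array there is no spread between samples and no test. The only errors at hand come from within the array: the log2 ratios of 2 positive controls, with 24 spots each, had SDs of 0.07 and 0.12, and the 1 probe spotted at 2 places, a dim one, gave -0.50 and -0.21. The means of these controls were -0.32 and -0.55 rather than 0. On the other arrays they also lay away from 0, at -0.76 to 0.93 and -0.97 to -0.17. The weaker of the controls had signals of 364 (WT) and 263 (INS) here, against 9856 to 12750 in WT on the other arrays. The sources used here do not say what the controls bind.

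Probes of both directions lay in every printing block. Over the 24 printing blocks, with 660 to 792 compared probes each, the block median of the log2 ratio ran from -0.04 to 0.01. The share of probes at least 2-fold apart ran from 4.26% to 8.24%, with 14 to 37 higher and 15 to 30 lower probes per block.

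The balance between higher and lower probes differed with the mean brightness over both channels. The compared probes were put into 10 bins of equal size by their mean log2 intensity over both channels. Among the 1728 brightest probes 284 were past 2-fold upward in INS (16.4%) and 166 downward (9.61%). In the next bin down the order was the other way, with 145 higher (8.39%) and 173 lower (10.0%), and in the one below it 82 were higher (4.75%) and 142 lower (8.22%). In the 5 dimmest bins none of 8641 probes reached 2-fold in either direction, a region where the added constant leaves little room for it. The 3 brightest bins together held 93.2% of all 2-fold probes. Probes higher in INS had a median signal of 364 in WT and 1207 in INS, and those lower had 422 in WT and 120 in INS. In the WT cells both sets thus sat at similar signals, well above the median of 31.0 over all compared probes. The intensity used for the bins includes the INS signal. At similar WT signals a probe higher in INS therefore falls into a brighter bin than one lower in INS. The balance by bin thus depends on the binning and is given as a description only.

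**Figure D1:**
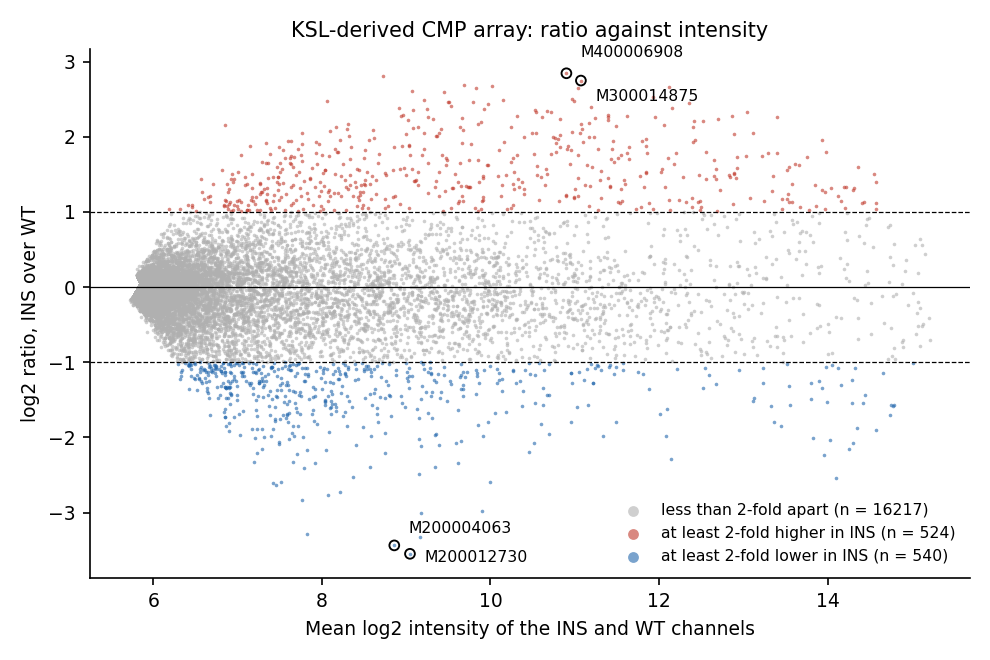
Each point is 1 of the 17281 compared probes of the CMP array, with its mean log2 intensity on the x axis and its log2 ratio of INS over WT on the y axis; dashed lines mark 2-fold. The 524 higher probes (red) spread over the bright range, the 540 lower ones (blue) crowd nearer the middle, and the 4 probes named in the text are circled.

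**Figure D2:**
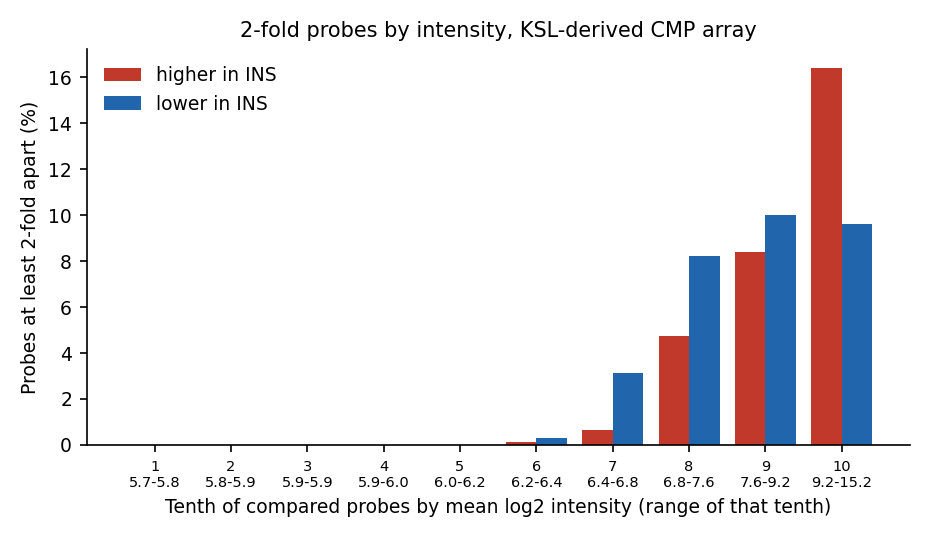
Bars give the share of probes at least 2-fold higher (red) or lower (blue) in INS CMP, in percent, for 10 bins of equal size by mean log2 intensity, dimmest on the left. The brightest bin holds 16.4% higher against 9.61% lower, and the 2 bins before it hold more lower than higher probes.

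Of the 2-fold probes in the brightest bin, 63.1% were higher in INS, and under the 7 alternatives that change the ratios 58.5% to 71.3% were. The 3 alternatives on the detection filter leave this bin as it is and say nothing about it. The bin held the same probes under every setting, chosen by an intensity that includes the INS signal. These shares are therefore no test of the balance. Over all compared probes the split did not hold its side in the same way: 49.2% of the 2-fold probes were higher, against 36.9% with median centring in place of loess and 60.2% with normexp on the local background. The authors' deposited table, which holds their own log2 ratios of this array, had 1613 probes at least 2-fold higher and 2212 lower. Its values correlated with those used here at a Pearson r of 0.814 across 14483 probes. Of the 524 higher probes 523 were in the authors' deposited table, all of them at least 2-fold higher there. Of the 540 lower probes 528 were in the authors' deposited table, all of them below 0 and 503 at least 2-fold lower.

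**Figure D3:**
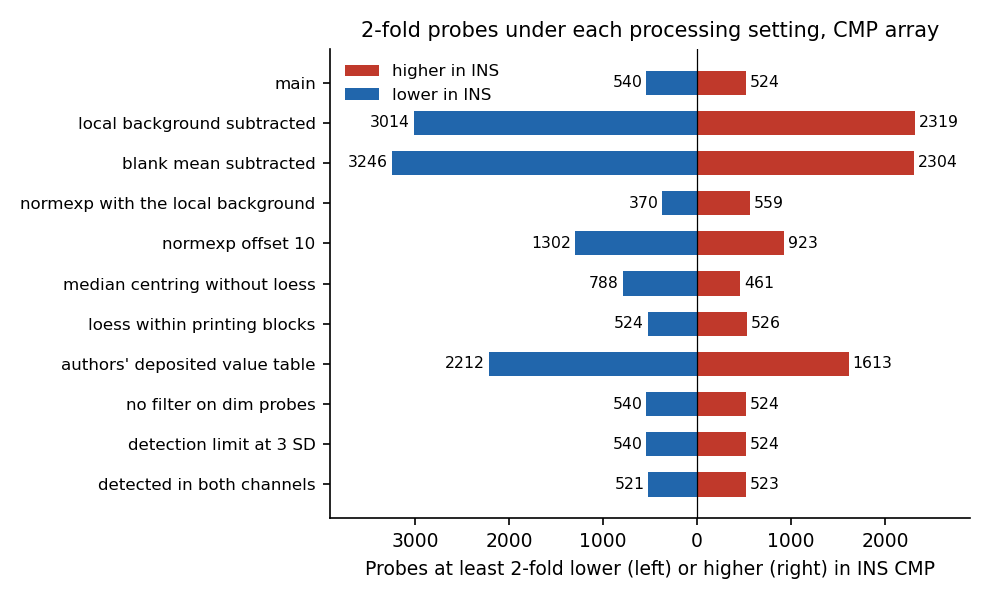
Bars give the number of probes at least 2-fold lower (blue, to the left) or higher (red, to the right) in INS CMP under the reported setting (main) and 10 alternatives. The counts grow several-fold where a background is subtracted with no constant added, from 524 and 540 to 2304 or more on either side, and the larger side changes between settings.

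Probes 2-fold apart under every setting were sought among those detected in both channels, at or above the median intensity of the compared probes and not saturated. Of 523 such probes at least 2-fold higher in INS, 364 were so under all 11 settings (69.6%), and of 521 lower ones 279 were (53.6%). Within each direction, probes were ranked by the smallest fold they showed under any setting. The first 12 higher probes were 5.22-fold to 7.18-fold higher and never under 5.06-fold. The first 12 lower ones were 5.26-fold to 11.7-fold lower and never under 4.90-fold. The higher 12 had signals of 130 to 1914 in WT and 1036 to 11442 in INS, and the lower 12 had 711 to 2740 in WT and 44 to 378 in INS. All 24 thus lay well above the detection limit in WT, and the dimmest of the lower ones came close to the limit of 35.0 in INS.

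M400006908 led the higher probes. Its spot had signals of 5040 (INS) and 683 (WT), with an SD over the pixels of the spot of 698 and 72.7, and it was 7.18-fold higher in INS. Across the settings the fold ran from 6.78 to 19.0. On the other arrays it lay at a log2 ratio of -0.07 in the CLP culture, 1.15 in the B cells, -0.31 in the KSL culture and -0.14 in T-ALL. The probe was thus 2-fold apart in the same direction in B cells and not in either culture or in T-ALL. Its raw WT signal was 683 in CMP and 1303 in B cells, the 2 lowest, against 4641 to 7021 on the other 3 arrays, while its raw INS signal was 5040 to 9860 on all of them. The local background beside these WT signals differed widely: 592 (CMP), 481 (B cells), 2311 (KSL culture, signal 7021), 3541 (T-ALL, signal 4641) and 5386 (CLP culture, signal 6204). Beside the INS signals it was 2272 to 4673. The raw WT signals thus do not by themselves set CMP and B cells apart from the other arrays. Signals of different arrays were scanned at different gains and are set side by side only as raw values.

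M300014875 came second, with signals of 5521 (INS) and 798 (WT) (pixel SD 716 and 96.2), 6.72-fold higher in INS and 6.13-fold to 13.0-fold across the settings. Its log2 ratio was -0.26 in the CLP culture, 0.68 in the B cells, 0.02 in the KSL culture and -0.15 in T-ALL, so that only the CMP array put it past 2-fold. Around both of these spots the local background was a large part of the signal: it was 3576 in INS and 592 in WT for M400006908, and 3543 in INS and 627 in WT for M300014875. Subtracting it gave the upper ends of their ranges. A large local background was common on this array. Among compared probes at or above the median intensity, the median ratio of local background to signal was 0.62 in INS and 0.48 in WT.

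M200012730 led the lower probes. It had signals of 122 (INS) and 1869 (WT) (pixel SD 30.5 and 528) and was 11.7-fold lower in INS, with 11.5-fold to 19.4-fold across the settings. It was also lower in INS B cells, at a log2 ratio of -1.80 (1524 in INS, 2559 in WT). In the CLP culture it went the other way, at 1.76 (2944 in INS, 708 in WT), and it lay at 0.31 in the KSL culture and -0.42 in T-ALL. Among the 4 named probes it was the only one past 2-fold in both directions.

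M200004063 had signals of 109 (INS) and 1578 (WT) (pixel SD 30.3 and 506) and was 10.8-fold lower in INS CMP, with 9.75-fold to 18.2-fold across the settings. Its log2 ratio was 0.94 in the CLP culture, -0.33 in the B cells, 0.28 in the KSL culture and 0.26 in T-ALL. Its INS signal on those arrays was 2757 to 4498, so the INS CMP signal was the lowest of this probe over both channels of all 5 arrays. Its WT signal was 1578 to 1967 throughout.

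**Figure D4:**
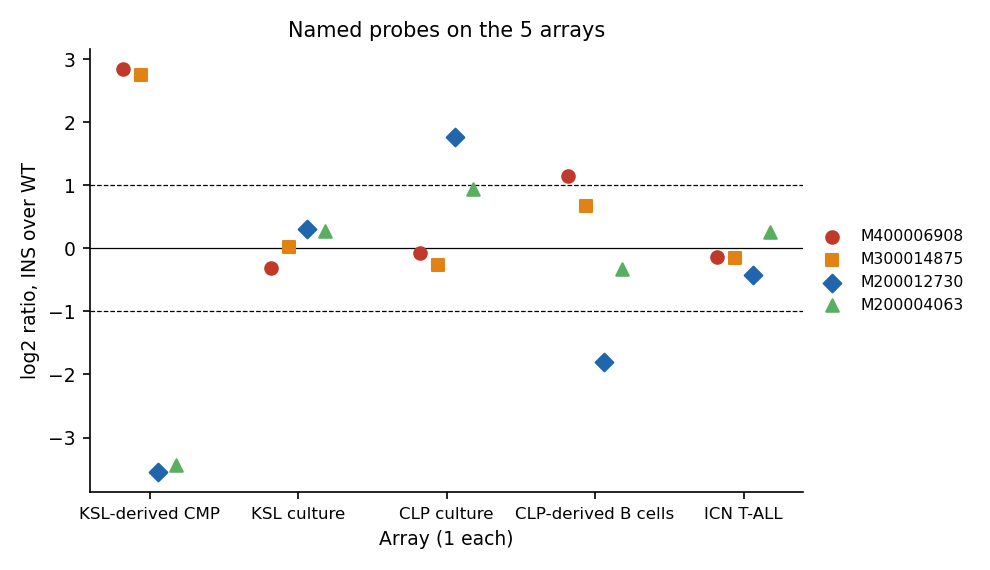
Points give the log2 ratio of INS over WT of the 4 named probes on each of the 5 arrays, with 1 value per array and dashed lines at 2-fold. All 4 lie past 2-fold on the CMP array; elsewhere only M400006908 (B cells, 1.15) and M200012730 (CLP culture, 1.76, and B cells, -1.80) do.

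The probes 2-fold apart in CMP, most of them bright, were apart on another array somewhat more often than compared probes of all brightness. Counting either direction, 6.16% of the compared probes were at least 2-fold apart in CMP, against 5.89% in the CLP culture, 8.85% in the B cells, 0.182% in the KSL culture and 2.41% in T-ALL. Of the 524 probes higher in INS CMP, 411 (78.4%) were not 2-fold apart on any other array, and of the 540 lower ones 393 (72.8%). Over all 17281 compared probes the share was 85.8%, higher than in either set. A probe not compared on another array counted as not apart there, which raises the share over all probes more. On each other array 16517 to 16797 of the 17281 were compared, against 522 to 524 of the higher set and 534 to 540 of the lower. Both sets are bright probes, which were more often past 2-fold on the other arrays too, and the part of brightness in this was not tested on its own. Array by array, the shares of the higher set mostly lay near those of the probes in the 3 brightest bins. Among probes lower in T-ALL the share was below (0.192% against 0.873%). The lower set exceeded the shares of these bright probes among probes lower in the B cells (10.6% against 5.88%) and lower in the CLP culture (2.78% against 1.29%). It also exceeded them among probes lower in the KSL culture (0.556% against 0.0772%), where only 4 of the probes compared on both arrays were lower.

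The KSL culture started from the same kind of cell, but it had few differences to share: in INS, 0.161% of its compared probes were past 2-fold upward and 0.0208% downward. Over the 16591 probes compared on both arrays, 1 probe was higher on both, 0.191% of the 524 on the CMP list and 4.35% of the 23 on the culture list. Lower on both were 3, which is 0.556% of the 540 CMP probes, and 3 of the 4 culture probes. Of the probes in the 3 brightest CMP bins, 0.116% were higher and 0.0772% lower in the INS culture. None went in opposite directions. The Pearson r of the log2 ratios across these probes was -0.118 (Spearman -0.125), and by printing block it ran from -0.198 to -0.0183. Subtraction of the local background turned it to 0.0121, and normexp on that background to 0.0202.

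The B cells, with 4.88% of compared probes higher and 3.97% lower in INS, gave the longest list to set against CMP. Lower on both arrays were 57 probes, 10.6% of the 536 lower CMP probes and 8.15% of the 699 lower B-cell probes. Of all 16690 probes compared on both, 4.19% were lower in INS B cells, and among those in the 3 brightest CMP bins 5.88% were. Lower in CMP and higher in B cells were 46 probes (8.58% of the CMP list and 5.31% of the B-cell list), and higher in both were another 46 (8.80% and 5.31%), against 9.15% of the bright probes higher in INS B cells. The remaining 30 were higher in CMP and lower in B cells (5.74% and 4.29%), against 5.88% of the bright probes lower there. So 10.6% of the lower CMP list was also lower in INS B cells, against 5.88% of the bright probes. The other 3 shares of the CMP lists lay near their background. Across all these probes r was -0.00336 (Spearman -0.0334).

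In the CLP culture 5.04% of compared probes were higher in INS and 0.854% lower. Lower on both arrays were 15 probes, which is 2.78% of the 539 lower CMP probes and 10.2% of the 147 lower culture probes, against 1.29% of the bright probes. Higher on both were 44 (8.40% and 4.99%), and lower in CMP but higher in the culture 49 (9.09% and 5.56%), against 7.83% of the bright probes. Higher in CMP but lower in the culture were 5 (0.954% and 3.40%). The r across 16797 probes was 0.0228 (Spearman 0.0277).

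T-ALL had 1.81% of compared probes higher in INS and 0.599% lower. It shared 17 higher probes with CMP (3.26% of 522 and 5.61% of 303) and 5 lower ones (0.936% of 534 and 5.10% of 98). In opposite directions were 13 probes lower in CMP and higher in T-ALL (2.43% of the lower CMP list) and 1 the other way (0.192% of the higher list). Of the bright probes 2.70% were higher and 0.873% lower in INS T-ALL, close to the shares of the CMP lists that went the same way. The r across 16517 probes was -0.0795 (Spearman -0.118), and it became 0.0154 after subtraction of the local background and 0.109 under normexp on it. The 4 correlations are descriptions across probes, which share array design, dye orientation and processing and are not replicates.

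Because the share of 2-fold probes differed between the brightness bins, the arrays were also compared over probes with a mean log2 intensity of 9 to 13 on their own array. In that window the CMP array had 1606 probes, of which 15.8% were past 2-fold upward in INS and 8.59% downward, with an SD of the log2 ratio of 0.92. The B cells had 9.21% higher and 10.8% lower (SD 1.04, 3182 probes), and the CLP culture 11.2% and 1.84% (SD 0.75, 3201 probes). T-ALL had 1.79% and 0.625% (SD 0.40) and the KSL culture 0.462% and 0 (SD 0.25). In either direction, 24.3% of the probes at these intensities were apart on the CMP array, 20.0% on the B-cell array and 0.462% in the KSL culture, which started from the same kind of cell. The window is a fixed range on arrays of unlike brightness. It held 1606 of 17281 compared probes on the CMP array and 4110 of 19244 in the KSL culture, so it covers unlike parts of each array. Its intensity again includes the INS signal. Each share is from 1 array, scanned at its own gain, and the difference was not tested.

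Since marker genes could not be read, the other WT populations were used to ask which kinds of probes differed. For each of them, 200 probes were chosen by WT signal alone, those farthest above the highest of the other 3 WT samples, and the CMP array played no part in the choice. Probes selective for the KSL culture were the best detected in CMP, with 179 of 200 detected in WT and 154 in INS and median signals of 100 and 82.0. For the other lists the median signals were 24.0 to 26.5 in WT and 39.0 to 42.0 in INS. The KSL-selective list was thus the brightest of the 4 in both CMP pools.

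The KSL-selective probes had a median CMP log2 ratio of -0.10 over the 181 compared, with 107 below 0 and 74 above. Of these, 14 were at least 2-fold higher and 14 lower (7.73% each), against 3.03% and 3.12% of all compared probes. In the 3 brightest bins 9.86% of the probes were higher and 9.28% lower. The list holds probes of all brightness bins and was not set against probes of matched brightness. The CLP-selective probes had a median of -0.05, with 2 higher and 3 lower of 156. The B-cell-selective probes had a median of 0.01, with 4 higher and 8 lower of 163, and the T-ALL-selective ones -0.04, with 5 higher and 8 lower of 163.

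**Figure D5:**
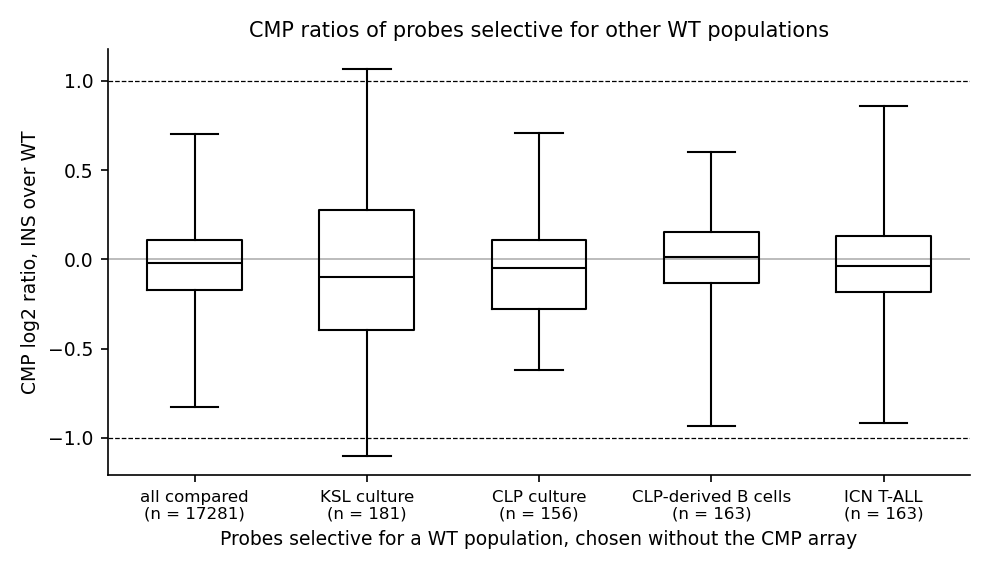
Boxes give the median and interquartile range of the CMP log2 ratios of INS over WT, and whiskers the middle 90%, for all 17281 compared probes and for the probes selective for each of 4 other WT populations. All medians lie between -0.10 and 0.01, and the KSL-selective probes, the brightest of the lists in CMP, spread the most.

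The 2-fold probes were also placed by the other WT population in which each was brightest. Of the 524 higher in INS CMP, 33.8% were brightest in T-ALL, 26.9% in the KSL culture, 22.3% in the B cells and 17.0% in the CLP culture. Of the 540 lower ones, 29.8% were brightest in the B cells, 24.6% in the KSL culture, 23.1% in the CLP culture and 22.4% in T-ALL. Over all compared probes the shares were 29.4% in T-ALL, 28.8% in the B cells, 21.5% in the KSL culture and 20.3% in the CLP culture. Relative to all probes, both sets thus had a larger share brightest in the KSL culture. The share brightest in T-ALL was larger in the higher set and smaller in the lower one, that in the CLP culture was smaller in the higher set and larger in the lower one, and that in the B cells was smaller in the higher set and slightly larger in the lower one (29.8% against 28.8%). Both sets are brighter than probes in general, and these shares were not compared at matched brightness.

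Probes selective for the CMP array itself were chosen in the same way against all other arrays. Picked by the WT signal, 200 probes had a median log2 ratio of -0.15, with 9 at least 2-fold higher and 24 lower. Picked by the INS signal, 200 probes had a median of 0.83, with 75 higher and 4 lower. Each choice uses one side of the ratio and pulls it that way, so these values are descriptions. The lists shared 77 probes, with a median of 0.34, 9 higher and 3 lower. These were chosen on both sides of the ratio, so their values are descriptions as well.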

How the data were processed

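RNA of 5 mouse sample pairs was measured on 5 2-colour arrays, 1 per pair. Per the labels' protocols, aRNA carrying amino allyl groups was made from total RNA and labelled with Cy5 (WT) or Cy3 (INS). The deposited scanner files hold linear spot and local background intensity, and per the file headers ratios are Cy3 over Cy5, with no normalization or background subtraction named; their SD over the pixels of a spot, a signal of the same scanner files as deposited by the authors, is the pixel SD. The authors' deposited value table gives a log2 ratio per probe, with a median near 0; its direction was settled against the scanner values, and its exact background and filter stay unknown. It served as an alternative.

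Foreground medians were corrected by normexp with an offset of 50 (limma 3.58.1, R 4.3.3), without the local background, and ratios were normalized by loess within each array (span 0.3, controls at weight 0). Flagged spots (5 of the probe spots here) were left out and spots of a probe averaged. No probe of the CMP array was saturated. Blanks (2736 spots, 5% trimmed at each end) set the detection limit. Levels for the selective lists were quantile-normalized over WT channels. With 1 array per comparison no p-value was computed and the number of arrays limits the precision. The steps were tested on simulated data. Named probes were the 2 each way with the largest smallest fold over 11 settings. Members, lists and settings were chosen with earlier results of these data known. Gene lists and markers could not be evaluated without gene names. Probe sequences are not used here.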

Additional observations from a re-analysis of the deposited data

Results flagged for a closer look

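Some probes went in opposite directions in 2 settings, and these differences were not tested, since each setting has 1 array. At least 2-fold apart in opposite directions were 54 probes on the CMP and CLP culture arrays, 49 of them lower in INS CMP and higher in the INS culture. These 49 are 9.09% of the lower CMP list, against 7.83% of the probes in the 3 brightest CMP bins that were higher in the culture, and the other 5 are 0.954% of the higher list, against 1.29% lower there. On the CMP and B-cell arrays 76 probes were, at 8.58% of the lower list against 9.15% of the bright probes and 5.74% of the higher list against 5.88%. On the CMP and T-ALL arrays 14 were, at 2.43% against 2.70% and 0.192% against 0.873%. The shares thus lay near or below those of bright probes. M200012730, 11.7-fold lower in INS CMP, had a log2 ratio of 1.76 in the CLP culture.

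The spots of the CMP array that hold no probe gave signal above the detection limit set by the blank spots more often than the blanks themselves. In the WT channel 52.8% of these 1102 spots passed, against 10.8% of the blanks, and in the INS channel 14.2% passed, against 4.20% of the blanks. The same held on every other array of the series. There 35.5% to 50.7% of such spots passed in WT, against 6.29% to 8.55% of the blanks. In INS 16.2% to 20.4% passed, against 6.47% to 8.11% of the blanks.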

How the results depend on the processing

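The number of 2-fold probes depended on the background: with the local background subtracted it was 2319 higher and 3014 lower, 2304 and 3246 after subtraction of the blank mean, 923 and 1302 with an offset of 10, and 1613 and 2212 in the authors' deposited value table. Under the other 6 alternatives both counts stayed within 1.5 times of 524 and 540. The 4 named probes were chosen by their smallest fold over these same settings, so their folds under the alternatives are no check of them. Of the list medians under the alternatives, 49 moved by less than 0.12, and 3 did not: -0.16 for the CLP list in the authors' deposited value table, 0.16 for the B-cell list with the local background subtracted and -0.23 for the KSL list with the blank mean subtracted. The correlation with the KSL culture was 0.0121 with the local background subtracted, 0.0202 with normexp on it, -0.0507 with the blank mean subtracted and -0.230 with median centring. That with T-ALL was 0.0154, 0.109 and, with median centring, -0.160. That with the CLP culture was 0.122 with normexp on the local background, and that with the B cells -0.0919 with median centring. The cause was not tested. In the 5 dimmest bins of this array no probe was 2-fold apart in the reported setting. The added constant leaves little room for it there, so this absence says nothing about the dim probes themselves. No paired analysis was possible because each setting has 1 array and no result comes from a test.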
